A study of Arabidopsis thaliana with 9 samples.

Results

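Jasmonate signalling in Arabidopsis sepals was examined through 7 genes for JAZ repressors and 2 genes for the transcription factors they bind. The genes were chosen by locus and are JAZ1, JAZ2, JAZ3, JAZ5, JAZ6, JAZ8, JAZ10, MYC3 and MYC4, 9 of the 38299 genes in the deposited table. The mutants were atml1-3, with an allele of ATML1, which encodes an epidermal HD-ZIP IV transcription factor, and gir1-1, with an allele of GIR1, which encodes a small adaptor protein. They were set against wild-type plants of the Col-0 ecotype (WT), and each of the 3 genotypes had 3 libraries. Each library was a pool of 200 sepals taken from 50 unopened buds at floral stage 12, from plants kept at 23 °C in continuous light. The labels assign every library to a single batch and do not tie replicates to separate plants, so p-values measure the spread between these pools, which may be partly technical.

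JAZ proteins bind MYC transcription factors and bring the co-repressor TPL to them, in most cases through the adaptor NINJA, so that jasmonate-responsive genes stay off. When jasmonate is made, for example after wounding, its isoleucine conjugate joins the receptor COI1 to a JAZ protein, the JAZ protein is destroyed and the MYC proteins become active. Many JAZ genes are themselves switched on by MYC proteins, which makes their transcripts a common readout of recent jasmonate signalling. In flowers, jasmonate is known for its role in stamen maturation and bud opening.

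MYC proteins are known to bind the G-box and its variant, the T/G-box. The letters CACGTG (G-box, its own reverse complement) and AACGTG (T/G-box, read on either strand, so that CACGTT also counts) were therefore looked for in the 300 bases from 250 before to 50 after each annotated gene start. No stretch of letters matches both motifs. Among the 7 JAZ genes, 3 had a G-box, 3 had a T/G-box and 5 had either. Of 27443 protein-coding promoters of the same length, 7.68% had a G-box, 8.95% a T/G-box and 15.77% either. JAZ1, JAZ10, MYC3 and MYC4 had neither in this window. The 5 promoters with a match are shown because these letters set them apart from the other members. They are read 5′ to 3′ on the gene's strand from the TAIR10.1 genome, with the matches in capitals.
JAZ2, chr1:28150397-28150696, minus strand: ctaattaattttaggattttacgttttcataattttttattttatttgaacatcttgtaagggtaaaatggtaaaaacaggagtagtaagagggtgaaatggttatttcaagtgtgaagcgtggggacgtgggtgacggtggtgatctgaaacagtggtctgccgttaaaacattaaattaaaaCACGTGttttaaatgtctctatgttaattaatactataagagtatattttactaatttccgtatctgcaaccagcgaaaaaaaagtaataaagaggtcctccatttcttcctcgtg
JAZ3, chr3:6119457-6119756, plus strand: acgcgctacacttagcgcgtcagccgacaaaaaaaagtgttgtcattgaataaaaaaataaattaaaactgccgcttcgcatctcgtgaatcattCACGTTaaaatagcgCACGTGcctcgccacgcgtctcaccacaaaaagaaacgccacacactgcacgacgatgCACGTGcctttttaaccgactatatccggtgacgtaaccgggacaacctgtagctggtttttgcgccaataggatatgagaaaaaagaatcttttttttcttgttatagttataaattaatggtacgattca
JAZ5, chr1:5957462-5957761, minus strand: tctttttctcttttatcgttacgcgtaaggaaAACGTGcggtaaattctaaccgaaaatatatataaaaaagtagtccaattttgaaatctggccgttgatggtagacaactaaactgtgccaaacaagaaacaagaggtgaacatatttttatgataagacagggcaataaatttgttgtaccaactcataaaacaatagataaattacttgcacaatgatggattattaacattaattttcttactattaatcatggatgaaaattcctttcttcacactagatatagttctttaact
JAZ6, chr1:27276513-27276812, minus strand: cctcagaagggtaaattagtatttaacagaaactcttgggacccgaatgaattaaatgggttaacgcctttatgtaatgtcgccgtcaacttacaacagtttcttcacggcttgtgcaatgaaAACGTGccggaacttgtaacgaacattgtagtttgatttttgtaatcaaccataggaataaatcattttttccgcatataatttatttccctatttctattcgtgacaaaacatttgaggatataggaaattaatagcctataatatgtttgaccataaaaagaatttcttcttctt
JAZ8, chr1:10596102-10596401, plus strand: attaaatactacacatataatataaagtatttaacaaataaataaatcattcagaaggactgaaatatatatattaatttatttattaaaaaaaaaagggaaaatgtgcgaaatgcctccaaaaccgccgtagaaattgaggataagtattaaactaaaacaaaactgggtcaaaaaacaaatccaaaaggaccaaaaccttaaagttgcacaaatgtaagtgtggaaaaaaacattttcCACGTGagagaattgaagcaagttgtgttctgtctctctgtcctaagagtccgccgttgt
The first base of the G-box lay 66 bases before the annotated start in JAZ2 and 10 before it in JAZ8, and JAZ3 had a pair, at 140 and 82 bases before the start. The T/G-box began 155 bases before the start in JAZ3, 218 in JAZ5 and 127 in JAZ6. A match of letters is a description and does not show binding.

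The libraries held 15328056 to 20148807 counts, and all 9 members passed the filter on low counts. ATML1 averaged 13.4 CPM (counts scaled to library depth) in atml1-3 and 37.9 CPM in WT, and GIR1 averaged 0.544 CPM in gir1-1 and 2.65 CPM in WT. Each gene was also below WT in all libraries of the other mutant, where GIR1 averaged 0.792 CPM in atml1-3 and ATML1 21.3 CPM in gir1-1. Every mutant library thus lay below every WT library for both genes, and the mutants overlapped each other in both, so that neither gene sets the mutants apart. In its own mutant, edgeR gave an adjusted p of 0.365 for ATML1 and 0.385 for GIR1. The sepal and perianth identity genes AP1, AP2, SEP1, SEP2, SEP3 and SEP4 summed to 771 to 972 CPM in atml1-3, 813 to 913 CPM in gir1-1 and 755 to 968 CPM in WT. The 8 petal and stamen markers summed to 49.2 to 71.9, 30.1 to 47.6 and 24.7 to 49.7 CPM in these genotypes. Most of each sum was the single gene AP3, at 47.4, 56.2 and 65.9 CPM in atml1-3. It had 28.1, 40.4 and 46.0 CPM in gir1-1 and 21.3, 43.1 and 47.6 CPM in WT. The tapetum gene A9 and the anther gene MS1 were at 0 in all 9 libraries, but the rest of this list had some counts. Over the 9 libraries PI had 6 to 92 counts, AG 1 to 30, AMS 1 to 12, TDF1 0 to 8 and DYT1 0 to 1. The 7 carpel and nectary markers summed to 40.2 to 51.8 CPM in atml1-3, 36.6 to 40.2 CPM in gir1-1 and 36.5 to 40.3 CPM in WT. Within them, CRC, a gene of carpel and nectary development, had 19, 39 and 24 counts in atml1-3, 0, 0 and 2 counts in gir1-1 and 20, 36 and 16 counts in WT. SHP1, a carpel identity gene in the same list, had 137, 91 and 134 counts in atml1-3, 77, 93 and 100 counts in gir1-1 and 76, 46 and 67 counts in WT. The part of these markers in the JAZ values was not tested. Over the JAZ genes, gir1-1 replicate 3 and WT replicate 2 lay farthest from the median library, so results that rest on gir1-1 replicate 3 are given with and without it, a choice made after the values were seen.

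Levels of the members were compared on the FPKM scale, which divides by gene length and library depth and so allows genes of different length to be set side by side. The order of mean FPKM was JAZ1, JAZ6, JAZ2 and JAZ10 in all 3 genotypes, followed by MYC3 and JAZ3 in either order, then JAZ5, MYC4 and JAZ8. In WT the means were 192.8 ± 62.8 FPKM for JAZ1, 130.5 ± 46.8 for JAZ6, 78.7 ± 15.5 for JAZ2 and 45.8 ± 10.6 for JAZ10 (SD, n = 3 each). JAZ3 averaged 28.2 ± 0.744 FPKM in WT, MYC3 25.6 ± 4.25, JAZ5 17.1 ± 2.74, MYC4 4.16 ± 1.76 and JAZ8 3.25 ± 1.96 (SD, n = 3 each). The libraries of JAZ1 and JAZ6 overlapped in every genotype, as did those of MYC3 and JAZ3 and those of MYC4 and JAZ8. JAZ6 and JAZ2, and JAZ2 and JAZ10, were apart in atml1-3 but overlapped in gir1-1. JAZ9, which is not a member, had the highest level of the 13 JAZ genes in each library, with 31.7% to 42.2% of their summed FPKM, against 34.5% to 47.4% for the 7 members together.

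**Figure D1:**
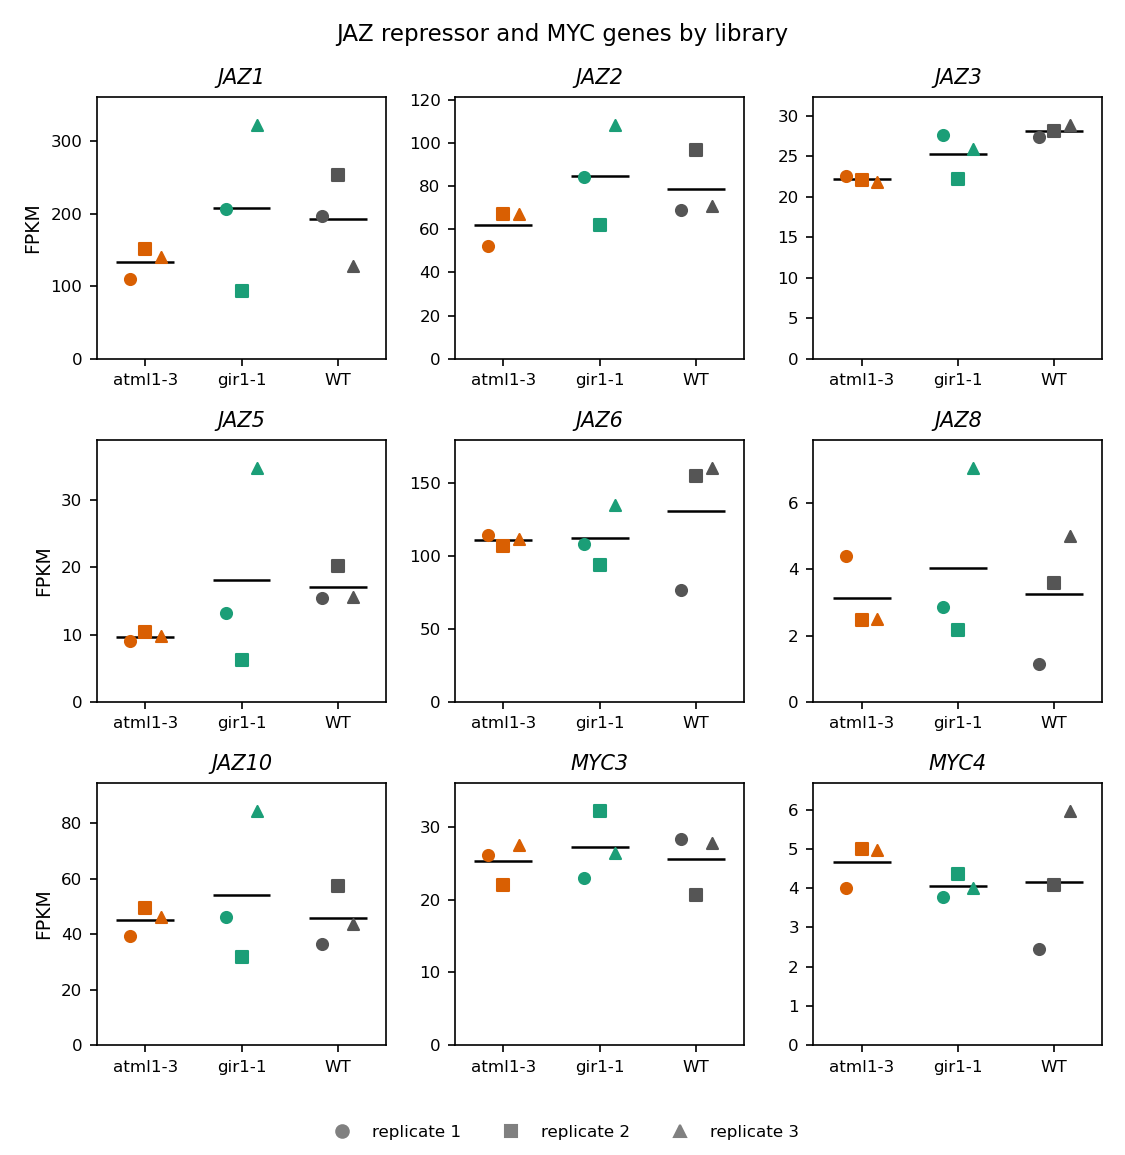
Level of each member in FPKM (vertical axis, from 0) in the 3 libraries of atml1-3, gir1-1 and WT (symbols, by replicate), with the mean of each genotype as a line. JAZ2, JAZ3 and JAZ5 lie lower in every atml1-3 library than in any WT library, and gir1-1 replicate 3 is the highest library for JAZ1, JAZ2, JAZ5, JAZ8 and JAZ10.

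In atml1-3 sepals, 3 JAZ repressor genes lay below WT in every library, JAZ5 by the largest fold, but no member passed the edgeR test, and the means of MYC3 and MYC4 were within the WT range. JAZ5 had 9.02, 10.4 and 9.74 FPKM in atml1-3, against 15.4, 20.2 and 15.6 FPKM in WT. JAZ5 encodes one of the JAZ proteins that carry an EAR motif, with which a repressor can bind TPL without NINJA. Its 3 atml1-3 libraries were close together, all below the lowest WT library, a log2 fold change of -0.80 (SE 0.474, 95% interval -1.86 to 0.25), or 0.57-fold. Its p-value was 0.12, and 0.537 after Benjamini-Hochberg adjustment over all 19174 genes tested with edgeR. In the authors' deposited table JAZ5 had a log2 fold change of -0.813 with an adjusted p-value of 0.0173, the only member below 0.05 in any comparison there. That table called 1.24% of its genes in this comparison. A fit of DESeq2 to the atml1-3 and WT libraries alone, chosen after seeing the data, gave JAZ5 an adjusted p-value of 0.0172, and edgeR on the same 6 libraries gave an SE of 0.167 and an adjusted p-value of 0.276. Without gir1-1 replicate 3, which shares the estimate of spread, edgeR gave an SE of 0.259 and an adjusted p-value of 0.378. Over 8 alternatives with all libraries of both genotypes the adjusted p-value of JAZ5 ran from 0.0172 to 0.599, and with one of these libraries left out from 0.468 to 0.738. On simulated data for gir1-1 against WT, fitted with all 9 libraries, DESeq2 called unaltered genes more often than edgeR, and edgeR missed most 2-fold changes. That simulation used the spread estimated by edgeR and did not cover a fit to the atml1-3 and WT libraries alone. It therefore cannot weigh the DESeq2 result for JAZ5. Neither the DESeq2 nor the edgeR result settles JAZ5.

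JAZ3, first known from a dominant jasmonate-insensitive mutant, had 22.6, 22 and 21.8 FPKM in atml1-3 and 27.4, 28.1 and 28.9 FPKM in WT. The replicates of each genotype were nearly equal and the groups did not overlap, with a log2 fold change of -0.34 (SE 0.125, 95% interval -0.62 to -0.06). Its unadjusted p-value was 0.0229 and its adjusted p-value 0.384 by edgeR. JAZ2, known for its part in stomatal defence, had 52.4, 66.9 and 67.0 FPKM in atml1-3 and 68.9, 96.5 and 70.7 FPKM in WT. Its groups were only just apart, with a log2 fold change of -0.33 (SE 0.223, adjusted p = 0.582 by edgeR).

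Non-overlap with WT on the lower side was thus seen for 3 of the 9 members, against 8.64% of all genes tested, and 18.5% of all genes tested were apart from WT in either direction. By edgeR, 0 of the 9 members passed the threshold of 0.05 in atml1-3 against WT, where 0% of all genes passed. DESeq2 on all 9 libraries also called 0 members, against 0.822% of its genes. At an unadjusted p under 0.05, JAZ3 was the 1 member, against 11.7% of all genes. The members had a median log2 fold change of -0.23, with 8 of 9 below 0, and all genes tested had a median of -0.01 with 51.1% below 0. RNA was measured in whole sepals, so fewer cells of one type and less RNA per cell cannot be told apart.

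The other members overlapped between atml1-3 and WT. JAZ1, the first-described repressor of the family, had 110.3, 151.7 and 140.1 FPKM in atml1-3 and 196.6, 253.6 and 128.2 FPKM in WT. The single low WT library, replicate 3, fell inside the atml1-3 range, and the log2 fold change was -0.52 (SE 0.395, adjusted p = 0.632 by edgeR). JAZ6, which is closely related to JAZ5, had 114.0, 107.1 and 111.8 FPKM in atml1-3 and 76.6, 154.6 and 160.3 FPKM in WT, so the tight atml1-3 libraries lay between the WT extremes. JAZ10, whose transcript is known for splice forms that give jasmonate-stable repressors, had 39.2, 49.5 and 46.2 FPKM in atml1-3 and 36.5, 57.4 and 43.6 FPKM in WT. JAZ8, a repressor with a degenerate degron that COI1 binds poorly, had the lowest mean, with 4.42, 2.48 and 2.51 FPKM in atml1-3 and 1.14, 3.6 and 5.02 FPKM in WT. The log2 fold changes were -0.23 (SE 0.262) for JAZ6, -0.02 (SE 0.315) for JAZ10 and -0.05 (SE 0.594) for JAZ8, and the signs of JAZ10 and JAZ8 turned with total-count scaling.

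MYC3 and MYC4 encode bHLH factors that act with MYC2 in jasmonate responses and glucosinolate synthesis. MYC3 had 26.1, 22.1 and 27.6 FPKM in atml1-3 and 28.3, 20.7 and 27.8 FPKM in WT, with a log2 fold change of -0.01 (95% interval -0.40 to 0.38) whose sign turned with total-count scaling. MYC4 had 4.0, 5.0 and 4.98 FPKM in atml1-3 and 2.45, 4.07 and 5.96 FPKM in WT, with a log2 fold change of 0.17 (95% interval -0.47 to 0.82). The WT libraries of MYC4 enclosed all 3 atml1-3 libraries. MYC2 itself is listed at 0 counts in all 9 libraries. In TAIR10.1, 98.5% of its exonic bases are overlapped by AT1G32630 on the other strand, which had 15 to 44 counts, and whether counting used strand is not given in the sources used here. The level of MYC2 can therefore not be read from these counts.

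**Figure D2:**
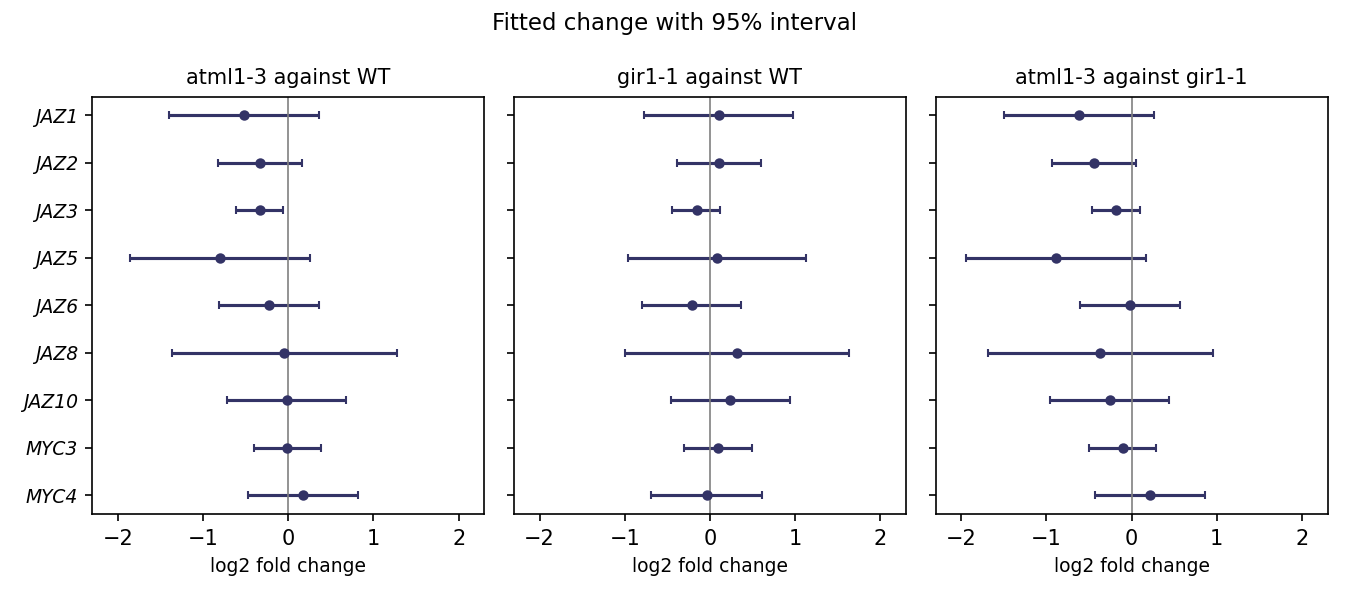
Log2 fold change of each member (points) with its 95% interval (bars) from the edgeR fit of all 9 libraries, for atml1-3 against WT, gir1-1 against WT and atml1-3 against gir1-1. The interval of JAZ3 in atml1-3 against WT, -0.62 to -0.06, is the only one that leaves out 0.

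In gir1-1 sepals no member passed a test against WT, and the gir1-1 libraries differed widely from each other in JAZ genes. JAZ5 had 13.2, 6.26 and 34.8 FPKM in gir1-1, against 15.4, 20.2 and 15.6 FPKM in WT. The gir1-1 libraries thus held both the lowest and the highest JAZ5 level of the series, 5.55-fold apart in FPKM. JAZ1 had 205.9, 93.4 and 322.9 FPKM in gir1-1, against 196.6, 253.6 and 128.2 FPKM in WT, again with both extremes in gir1-1. JAZ10 had 46.1, 31.8 and 84.3 FPKM in gir1-1, against 36.5, 57.4 and 43.6 FPKM in WT. JAZ2 had 84.0, 62.1 and 108.5 FPKM in gir1-1, against 68.9, 96.5 and 70.7 FPKM in WT. For all 4 genes replicate 2 was the lowest gir1-1 library and replicate 3 the highest.

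By edgeR, 0 of 9 members passed the threshold in gir1-1 against WT, where 0.0156% of all genes tested passed. At an unadjusted p under 0.05 there were also 0 members, against 7.52% of all genes. DESeq2 on all 9 libraries called 0 members, against 0.749% of its genes, and the authors' deposited table has 0 members below 0.05, against 0.455%. The groups did not overlap for 0 of 9 members, against 10.5% of all genes, and 3 of 9 had a log2 fold change below 0, against 49.3%. The adjusted p-values of the members lay between 0.824 and 0.989. The largest log2 fold change was 0.32 for JAZ8 (SE 0.59), at 2.86, 2.18 and 7.07 FPKM in gir1-1 and 1.14, 3.6 and 5.02 FPKM in WT. The interval of JAZ3 ran from -0.44 to 0.12 (27.6, 22.2 and 25.9 FPKM in gir1-1, against 27.4, 28.1 and 28.9 FPKM in WT). That of MYC3 ran from -0.30 to 0.49 (23.0, 32.2 and 26.4 FPKM in gir1-1, against 28.3, 20.7 and 27.8 FPKM in WT). MYC4 had 3.77, 4.37 and 4.0 FPKM in gir1-1 and 2.45, 4.07 and 5.96 FPKM in WT, and JAZ6 had 108.4, 94.0 and 135.1 FPKM in gir1-1 and 76.6, 154.6 and 160.3 FPKM in WT. In both, the gir1-1 libraries lay inside the WT range. Without gir1-1 replicate 3 the log2 fold changes were -0.81 for JAZ5, -0.36 for JAZ1, -0.23 for JAZ10, -0.10 for JAZ2 and -0.36 for JAZ8. With it they were 0.08, 0.11, 0.24, 0.11 and 0.32 in the same order, and 0 members passed either way. The median over the 9 members was -0.23 without this library, with 8 of 9 below 0, and 0.09 with it, so the sign of the median rested on it. Of the 7 JAZ genes, the signs of JAZ3 and JAZ6 were negative with and without it. Leaving out a WT library also turned JAZ1 (-0.12 without WT replicate 3) and JAZ8 (-0.09 without WT replicate 1).

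By its median, the spread of the JAZ genes within a genotype was wider in gir1-1 than in atml1-3 or WT. The coefficient of variation (SD over mean of CPM, n = 3) of the 7 JAZ genes had a median of 12.0% in atml1-3, 49.8% in gir1-1 and 23.6% in WT. Over all genes tested the medians were 16.3% in atml1-3, 19.7% in gir1-1 and 21.7% in WT. In gir1-1 it reached 81.9% for JAZ5, 65.2% for JAZ8 and 55.0% for JAZ1, but was 11% for JAZ3, 17.1% for MYC3 and 7.59% for MYC4. In WT it was 16.4% for JAZ5, 60.4% for JAZ8 and 32.8% for JAZ1. JAZ6 and MYC4 were more spread in WT, at 36.1% and 42.3%, than in gir1-1, at 18.2% and 7.59%. Replicates 1 and 2 of gir1-1, without replicate 3, differed by a median of 1.35-fold over the 7 JAZ genes and 1.28-fold over all genes tested, with 2.2-fold for JAZ1 and 2.11-fold for JAZ5. With 3 libraries each, these spreads are descriptions and the difference between genotypes was not tested.

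Set directly against each other, atml1-3 had a log2 difference below 0 from gir1-1 for all 7 JAZ genes, although that of JAZ6 was above 0 with total-count scaling, and no JAZ gene was apart in all libraries. JAZ5 had 9.02, 10.4 and 9.74 FPKM in atml1-3 and 13.2, 6.26 and 34.8 FPKM in gir1-1, a log2 difference of -0.89 (SE 0.474, adjusted p = 0.717 by edgeR). For JAZ1 the log2 difference was -0.62 (SE 0.395, adjusted p = 0.736) and for JAZ2 -0.44 (SE 0.223, adjusted p = 0.70 by edgeR). By edgeR, 0 of the 9 members passed the threshold, against 0.0834% of all genes, and 0 had an unadjusted p under 0.05, against 7.35%. DESeq2 on all 9 libraries called 0 members, against 0.764% of its genes, and the authors' deposited table has 0 below 0.05, against 1.32%. The groups did not overlap for 0 members, against 15% of all genes, and 8 of 9 had a log2 difference below 0, against 50.4%. Without gir1-1 replicate 3 the difference of JAZ5 was 0.002 and that of JAZ1 -0.15, while those of JAZ6, JAZ8 and JAZ10 were 0.14, 0.31 and 0.21, above 0. Both mutant contrasts use the same WT libraries.

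Several JAZ genes were high or low in the same libraries. The mean of their standardized log2 CPM was -0.58, -0.36 and -0.46 in atml1-3, 0.22, -1.08 and 1.42 in gir1-1, and -0.47, 0.92 and 0.40 in WT. The atml1-3 libraries were all below 0, while gir1-1 and WT each held libraries on both sides. Pearson's r over the 9 libraries was 0.91 between JAZ1 and JAZ2, 0.90 between JAZ1 and JAZ5 and 0.82 between JAZ6 and JAZ8. Without the 2 farthest libraries, gir1-1 replicate 3 and WT replicate 2, these were 0.74, 0.75 and 0.92, over 7 libraries. Between JAZ1 and JAZ6, r was 0.25 with all libraries and -0.28 without the 2, and between JAZ1 and JAZ8 0.26 and -0.42, so the pair of JAZ6 and JAZ8 did not follow JAZ1. MYC3 ran against the mean JAZ level (r = -0.50, and -0.52 without the 2) and MYC4 was nearly unrelated to it (0.06 and 0.26). These points share library, depth and genotype, and the values are descriptions.

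The 10 tested genes whose log2 CPM followed the mean JAZ level most closely over the 9 libraries had r between 0.896 and 0.943. They were AT3G15140 (0.943), AT-HF (0.922), AT2G42760 (0.917), RPS6 (0.914), AT1G33600 (0.912), CBL1 (0.911), LOX4 (0.910), AT3G18600 (0.909), ARL (0.902) and AT1G04200 (0.896). Without the 2 farthest libraries their r was 0.683 to 0.896. LOX4, a lipoxygenase of jasmonate synthesis, had 53.2, 68.4 and 60.7 CPM in atml1-3, 134.0, 54.6 and 291.2 CPM in gir1-1 and 114.4, 163.4 and 99.0 CPM in WT. Like JAZ1 and JAZ5, LOX4 was highest in gir1-1 replicate 3. For LOX4, gir1-1 replicate 2 lay among the atml1-3 libraries, whereas for JAZ1 and JAZ5 it lay below all of them.

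**Figure D3:**
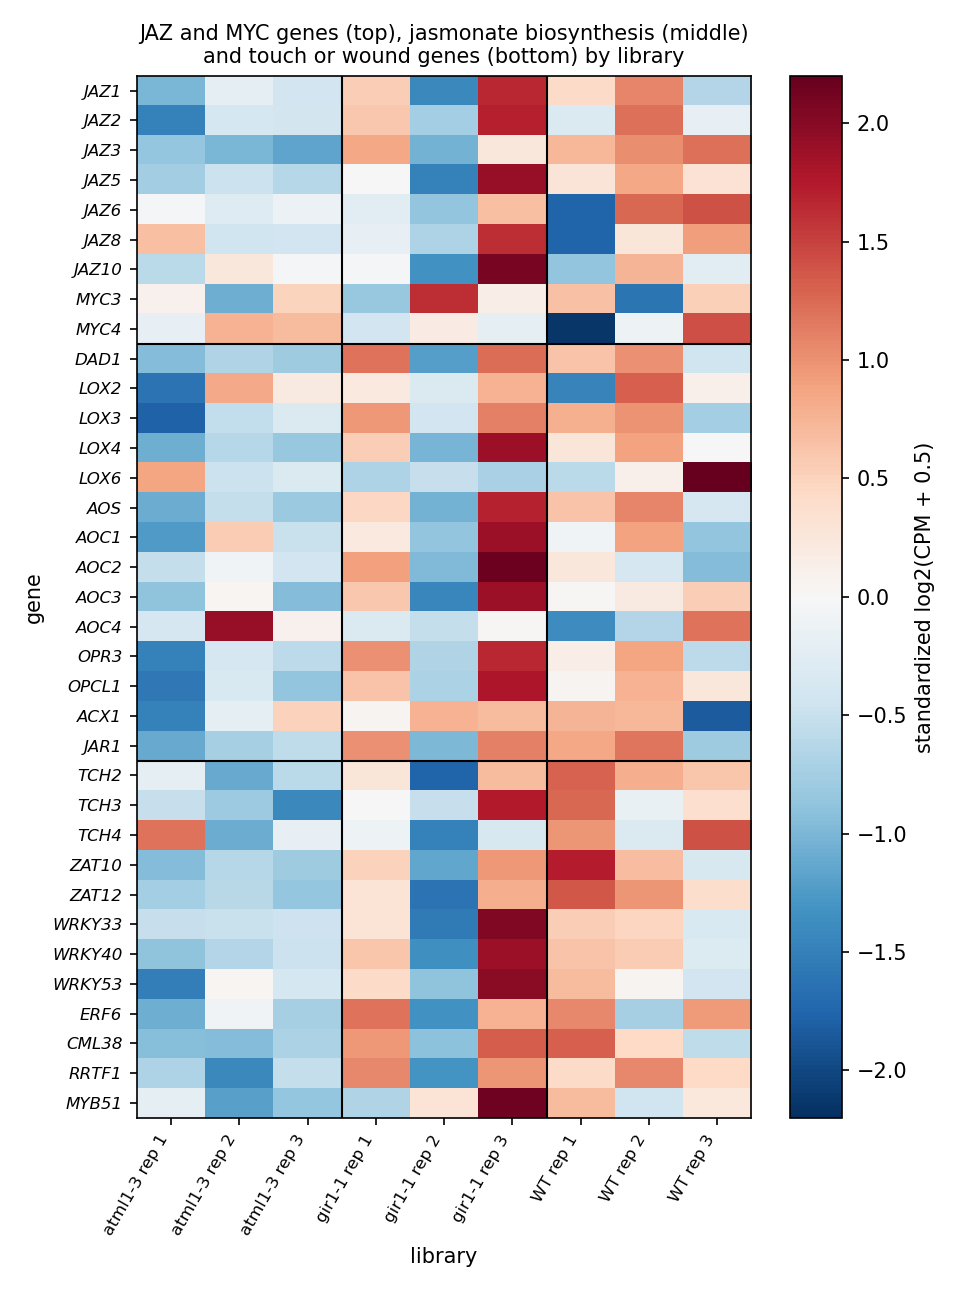
Standardized log2(CPM + 0.5) of the 9 members (top block), 14 jasmonate biosynthesis genes (middle) and 12 touch or wound genes (bottom) in each library, red for high and blue for low relative to the gene's own mean. The columns of gir1-1 replicate 2 and gir1-1 replicate 3 are mostly blue and mostly red, and the atml1-3 columns are mostly blue.

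Most genes of jasmonate synthesis had lower means in atml1-3 than in WT, without a call. Of 14 genes, 13 had a log2 fold change below 0 with a median of -0.82, and 0 passed the edgeR threshold. At an unadjusted p under 0.05, 4 were lower, against 6.22% of all genes. DAD1, a phospholipase that releases the fatty acid precursor, had 1.07, 1.74 and 1.43 CPM in atml1-3 and 10, 16.2 and 2.41 CPM in WT, a log2 fold change of -2.74 (SE 1.01, adjusted p = 0.384 by edgeR). Of the 14 genes, 4 were lower in atml1-3 without overlap, DAD1, LOX4, AOS and OPCL1, against 8.64% of all genes tested. LOX4 had a log2 fold change of -1.05 (SE 0.473, adjusted p = 0.425 by edgeR). JAR1, which couples jasmonate to isoleucine, had 41.9, 56.5 and 63.8 CPM in atml1-3, 217.1, 46.2 and 235.2 CPM in gir1-1 and 191.4, 245.2 and 54.2 CPM in WT. One library of gir1-1 and one of WT thus sat at the atml1-3 level. LOX3 had 246.0, 594.5 and 691.4 CPM in atml1-3 and 1513.4, 1739.7 and 512.5 CPM in WT, which overlapped. In gir1-1, 12 of the 14 genes had a log2 fold change above 0, with a median of 0.21. The cyclase genes AOC1, AOC2 and AOC3 and the reductase gene OPR3 had the largest log2 fold changes in gir1-1, 0.69, 2.86, 0.79 and 0.58, with 0 passing. Without gir1-1 replicate 3, only 4 of the 14 were above 0 and the median was -0.16. AOC2 had 8.99, 0.671 and 38.2 CPM in gir1-1 and 4.06, 1.82 and 0.705 CPM in WT. AOC1, AOC2 and AOC3 are close paralogs, so the split of reads between them is uncertain.

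Genes that break down or modify jasmonate had a median log2 fold change of -0.37 in atml1-3 (7 of 9 below 0) and 0.10 in gir1-1 (6 of 9 above 0), with 0 passing in either. Without gir1-1 replicate 3, one more gene could be tested in gir1-1 and the median was -0.06, with 4 of 10 above 0. CYP94B3, which hydroxylates the active conjugate, had 10.1, 6.85 and 8.71 CPM in atml1-3, 55.9, 3.05 and 74.5 CPM in gir1-1 and 31.4, 45.7 and 8.87 CPM in WT. CYP94C1, which acts in the same pathway, lay below WT in all 3 atml1-3 libraries (2.83, 5.83 and 8.89 CPM, against 11.3, 16 and 12.4 CPM in WT). The log2 fold changes were -1.74 (SE 0.88, adjusted p = 0.473) and -1.17 (SE 0.536, adjusted p = 0.427 by edgeR).

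Downstream response genes had positive medians in both mutants. Of 7 tested, 6 had a log2 fold change above 0 in gir1-1, with a median of 1.2, and 5 in atml1-3, with a median of 0.65, and 0 passed in either. At an unadjusted p under 0.05, 4 were higher in gir1-1, against 644 of all 19174 genes tested. Without gir1-1 replicate 3 its median was 0.53, with 4 of 7 above 0. VSP1 and VSP2, storage proteins widely used as jasmonate markers, had log2 fold changes of 1.2 (SE 0.384) and 1.49 (SE 0.394) in gir1-1 (adjusted p = 0.512 and 0.436 by edgeR). VSP2 had 1597.5, 2032.3 and 2458.3 CPM in gir1-1 and 358.0, 863.6 and 949.6 CPM in WT, which did not overlap. Replicate 2 was the lowest gir1-1 library for all 7 JAZ genes but not for VSP2. VSP1 and VSP2 are close paralogs, so reads may be split between them. CORI3, a jasmonate-responsive gene, had 1001.6, 1164.3 and 717.2 CPM in atml1-3 and 370.2, 522.0 and 605.0 CPM in WT, which did not overlap (log2 fold change 0.94, SE 0.317, adjusted p = 0.379 by edgeR). ORA47, an activator of jasmonate synthesis genes, had 8.55, 16.8 and 13.8 CPM in atml1-3 and 75.1, 106.8 and 33.7 CPM in WT, with a log2 fold change of -2.46 (SE 0.725, adjusted p = 0.372 by edgeR). TAT3, an aminotransferase gene induced by jasmonate, had 0.126, 1.54 and 0.179 CPM in atml1-3, 12.8, 1.59 and 123.6 CPM in gir1-1 and 5.89, 4.31 and 0.117 CPM in WT.

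Of the 14 perception and co-repressor genes, 0 passed in either mutant. Over these genes the median log2 fold change was -0.02 in atml1-3 and -0.01 in gir1-1, with a range of -0.48 to 0.36 in atml1-3. COI1, the receptor, had a log2 fold change of -0.02 (SE 0.196) in atml1-3 and -0.03 (SE 0.196) in gir1-1. NINJA was at 58.9, 65.5 and 60.7 CPM in atml1-3 and 39.6, 49.1 and 55.3 CPM in WT, which did not overlap (log2 fold change 0.36, SE 0.153, adjusted p = 0.411 by edgeR). TPL was at 214.4, 210.0 and 258.5 CPM in atml1-3, 175.2, 259.8 and 190.9 CPM in gir1-1 and 308.5, 279.5 and 225.7 CPM in WT, and overlapped between the genotypes.

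Among the 6 other JAZ genes, of which JAZ4 was too low to test, JAZ11 was higher in both mutants' libraries than in WT, without a call. It had 43.4, 36.5 and 42.0 FPKM in atml1-3, 31.1, 40.4 and 38.7 FPKM in gir1-1 and 30.3, 27.1 and 26.8 FPKM in WT. It had log2 fold changes of 0.54 in atml1-3 (SE 0.144, adjusted p = 0.372) and 0.39 in gir1-1 (SE 0.144, adjusted p = 0.599 by edgeR). JAZ13 had a log2 fold change of -0.94 (SE 0.498) in atml1-3, JAZ9 -0.33 (SE 0.217) and JAZ7 -0.28 (SE 0.465), and these overlapped WT. Of 13 other transcription factors known to bind JAZ proteins, 10 were tested, with medians of -0.25 in atml1-3 and -0.02 in gir1-1 and 0 passing. MYB21, a regulator of late flower development, had 48.6, 55.0 and 60.4 CPM in gir1-1 and 60.7, 121.0 and 64.0 CPM in WT, a log2 fold change of -0.58 (SE 0.254, adjusted p = 0.661 by edgeR). JAM1, a repressor that competes with MYC proteins, had a log2 fold change of -0.75 (SE 0.332, adjusted p = 0.42 by edgeR) in atml1-3.

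**Figure D4:**
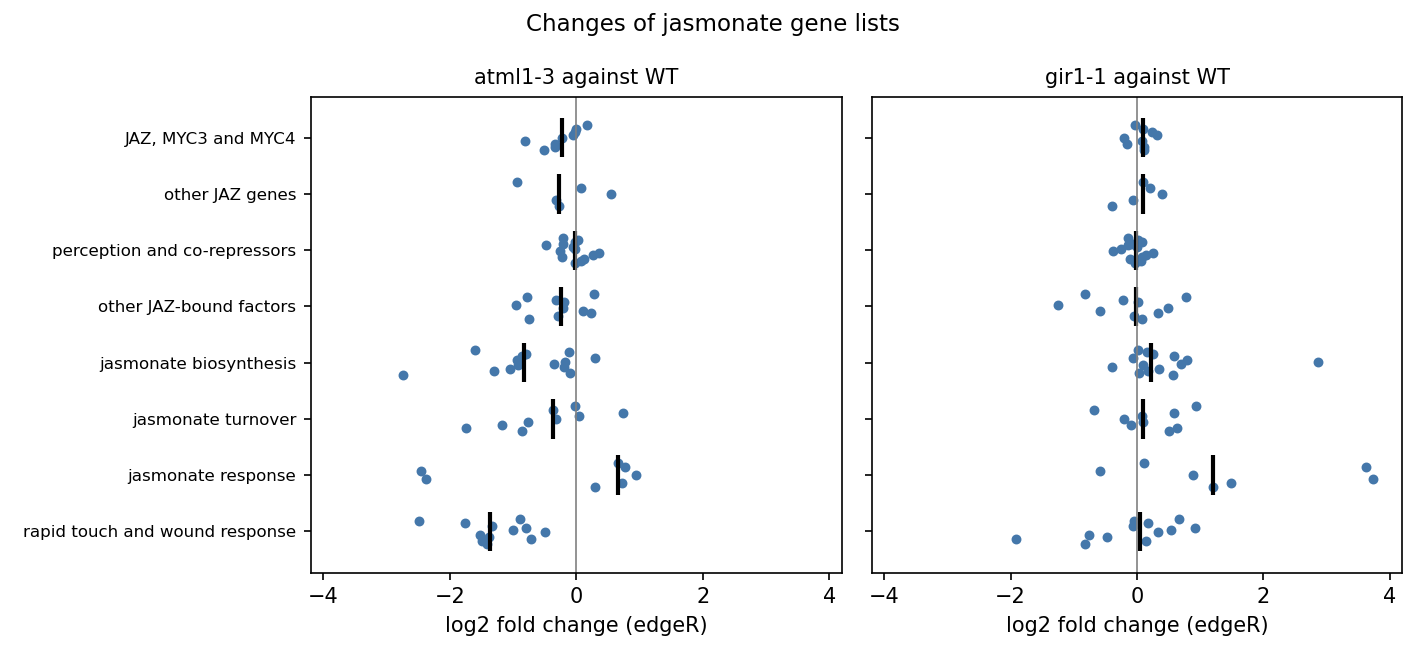
Log2 fold change of each tested gene (points) of 8 gene lists in atml1-3 against WT and gir1-1 against WT, with the median of each list as a bar. The touch and wound genes have the lowest median in atml1-3, -1.36, and the response genes the highest in gir1-1, 1.2, or 0.53 without gir1-1 replicate 3.

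Touch and wound genes, which respond quickly to handling such as dissection, had log2 fold changes below 0 in atml1-3, without a call. In atml1-3, all 12 had a log2 fold change below 0, with a median of -1.36, 8 of 12 lay below WT without overlap, against 8.64% of all genes tested, and 0 passed the edgeR threshold. Their summed level was 845, 304 and 391 CPM in atml1-3, 656, 225 and 1092 CPM in gir1-1, and 1271, 652 and 1127 CPM in WT. The sum thus overlapped between atml1-3 and WT. TCH4 alone had 598.1, 67.8 and 161.9 CPM in atml1-3 and 484.8, 143.8 and 730.4 CPM in WT. It held much of the sum in several libraries, so the overlap of the sum does not describe the 8 genes that lay apart. The lowest sum of the series was in gir1-1 replicate 2, the library with the lowest JAZ mean. The highest sum was in WT replicate 1, whose JAZ mean was -0.47. WT replicate 2, with a JAZ mean of 0.92, had the lowest WT sum. TCH4 weighed on this order, with 484.8 CPM in WT replicate 1 and 143.8 CPM in WT replicate 2. Over the 9 libraries its r with the mean JAZ level was 0.109, against 0.447 (MYB51) to 0.838 (WRKY33) for the list's other genes. Without the 2 farthest libraries r was 0.502 for TCH4 and -0.155 (MYB51) to 0.796 (ERF6) for the others. These values are descriptions. ZAT12, a stress-induced zinc finger gene, had 27.8, 30.4 and 26.2 CPM in atml1-3, 53.9, 16.1 and 73.1 CPM in gir1-1 and 104.3, 81.6 and 56.5 CPM in WT. CML38, a calmodulin-like wound gene, had 10.9, 10.7 and 13.2 CPM in atml1-3, 51.6, 11.2 and 70.4 CPM in gir1-1 and 69.0, 33.9 and 14.9 CPM in WT. The log2 fold changes in atml1-3 were -1.52 for ZAT12 (SE 0.443, adjusted p = 0.372) and -1.76 for CML38 (SE 0.642, adjusted p = 0.384 by edgeR). In gir1-1 the list's median was 0.05, with 6 of 12 above 0, and without gir1-1 replicate 3 it was -0.44, with all 12 below 0. At an unadjusted p under 0.05, 6 were lower in atml1-3, against 6.22% of all genes. The part of handling in the JAZ values was not tested.

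Some members lie close to jasmonate genes on the chromosome, pairs noticed after their values were seen. JAZ2 (chromosome 1, 28148574 to 28150446, minus strand) is 3.52 kb from ORA47, with 1 gene between. JAZ5 (chromosome 1, 5955155 to 5957511, minus strand) is 19.8 kb from LOX3, with 5 genes between, and JAZ6 (chromosome 1, 27273968 to 27276562, minus strand) is 32.0 kb from LOX4, with 8 between. Over the 9 libraries r was 0.82 for JAZ2 and ORA47, 0.67 for JAZ5 and LOX3 and 0.37 for JAZ6 and LOX4. With the mean level of the 7 JAZ genes, r was 0.774 for ORA47, 0.60 for LOX3 and 0.91 for LOX4. The part of position in these values was not tested. MYC3 is 26.0 kb from MYC5, with 9 genes between, and has no r because MYC5 was too low to test. Of the remaining members, JAZ1 lies on chromosome 1 (6621777 to 6623668, plus strand), JAZ8 on chromosome 1 (10596352 to 10597341, plus strand) and JAZ3 on chromosome 3 (6119707 to 6123044, plus strand). JAZ10 lies on chromosome 5 (4218786 to 4221077, plus strand), where 3.2% of its exonic bases overlap AT5G02045 on the other strand. MYC3 lies on chromosome 5 (18974022 to 18976590, plus strand) and MYC4 on chromosome 4 (9933326 to 9935685, minus strand), each with a single exon. No 50-base word of any member's exons occurred elsewhere in the genome.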

How the data were processed

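RNA sequencing counts from sepals were taken from the authors' deposited table, with groups and replicate numbers from the sample titles. Per the file headers, the authors deposited raw read counts and FPKM values per library. For each pair of genotypes they also deposited log2 fold changes, and raw and adjusted p-values. The build is TAIR10 per the submitters' processing notes. Aligner, counter and strand use are not given in the sources used here. FPKM served for levels, and all tests used the counts.

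Tests used the quasi-likelihood method of edgeR 4.0.16 (R 4.3.3), with TMM scaling, filterByExpr (19174 genes kept, at least 99.88% of counts) and Benjamini-Hochberg adjustment over all of them, in one fit of 9 libraries with 6 residual degrees of freedom. CPM values are scaled by TMM. DESeq2 1.42.0 and limma-voom (limma 3.58.1) were alternatives. The tests were tried on simulated data for gir1-1 against WT, with 200 altered genes. At 2-fold, edgeR found 13% of the altered genes, DESeq2 39% and limma-voom 13%. At 4-fold these shares were 70.4%, 82% and 67.3%. Unaltered genes made up 7.9% of what edgeR called, 27.5% for DESeq2 and 11.2% for limma-voom, at a threshold of 0.05. A gene not called by edgeR may thus still differ by 2-fold. In this setting, with the spread estimated by edgeR and all 9 libraries in the fit, DESeq2 calls were less secure. Fits to only the genotypes compared, and the other comparisons, were not simulated. Replicates differed by far more than sampling noise (chi-square over degrees of freedom 26.31 to 63.23). Starts and ends of all 38068 genes found in the RefSeq annotation matched TAIR10.1, from whose genome promoters were read. Totals of 15328056 to 20148807 counts put a floor of 3 counts at 0.1489 to 0.1957 CPM, for counting error only.

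Members and gene lists were chosen with earlier results of these data known. Named are all members, of each list up to 4 genes with the largest change per mutant contrast, the 10 genes most like the JAZ mean, GIR1 and ATML1. Other genes are named for their role in the pathway or after their values were seen.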

Additional observations from a re-analysis of the deposited data

How the results depend on the processing

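No member passed the threshold in any comparison under the alternatives tried, with 1 exception. DESeq2 fitted to the genotypes compared, chosen after seeing the data, called 1 member in atml1-3 against WT, JAZ5. The count of genes called moved more. On data simulated for gir1-1 against WT, with all 9 libraries in the fit, the larger share of wrongly called genes was with DESeq2. Between atml1-3 and gir1-1 the count of genes called was 16, against 59 without the filter, 156 with DESeq2 and 321 with DESeq2 on the genotypes compared. It was 42 with edgeR on them, and 1 to 7 with one library left out. In atml1-3 against WT it was 0, against 1, 156 and 306 with the first 3 of these settings, and 0 to 5 with one library left out. In gir1-1 against WT it was 3, against 15, 153 and 116 with them, 6 with limma-voom and 0 to 6 with one library left out. The cause was not tested.

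Fold changes near 0 turned sign. With limma-voom, gir1-1 against WT gave -0.021 for JAZ1, -0.23 for JAZ5 and 0.052 for MYC4, atml1-3 against WT gave 0.13 for JAZ8, and atml1-3 against gir1-1 gave 0.0060 for JAZ6. With total counts, atml1-3 against WT gave 0.077 for JAZ10, 0.029 for JAZ8 and 0.076 for MYC3, and atml1-3 against gir1-1 gave 0.042 for JAZ6. With total counts the median log2 fold change of all genes in atml1-3 against WT was 0.081, against -0.01 with TMM.

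The labels do not say whether libraries with equal replicate numbers were collected together, and the correlations below cannot show it. Same-numbered deviations correlated by 0.075, 0.121 and -0.077 in gir1-1 against WT, and by -0.174 to -0.012 in the other comparisons. With the replicate block 20 genes were called between the mutants, 0 in atml1-3 against WT and 1 in gir1-1 against WT. The block gave -0.12 for JAZ5 and 0.028 for MYC4 in gir1-1 against WT, 0.12 for JAZ8 in atml1-3 against WT and 0.0032 for JAZ6 between the mutants.

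With one library left out, the log2 fold change in atml1-3 against WT ran from -0.16 to 0.17 for JAZ10, -0.46 to 0.41 for JAZ8, -0.14 to 0.076 for MYC3 and -0.10 to 0.53 for MYC4. In gir1-1 against WT it ran from -0.36 to 0.46 for JAZ1, -0.10 to 0.30 for JAZ2, -0.81 to 0.50 for JAZ5, -0.36 to 0.77 for JAZ8, -0.23 to 0.52 for JAZ10, -0.043 to 0.20 for MYC3 and -0.31 to 0.31 for MYC4. Between atml1-3 and gir1-1 it ran from -1.30 to 0.0020 for JAZ5, -0.13 to 0.14 for JAZ6, -0.69 to 0.31 for JAZ8, -0.54 to 0.21 for JAZ10 and -0.21 to 0.031 for MYC3. JAZ1, JAZ2, JAZ3, JAZ5 and JAZ6 kept a negative sign in atml1-3 against WT in all 6 such fits. JAZ8 had the lowest level and the widest intervals of the members, and its direction could not be resolved at this depth and spread.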
